A study of Mus musculus with 5 samples.

Results

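MHC class I presentation was followed through 10 genes of the 28692 in the gene list of the deposited matrices: the immunoproteasome subunits Psmb8 and Psmb9, the peptide transport and loading genes Tap1, Tap2 and Tapbp, the heavy chain genes H2-K1, H2-D1 and H2-T23, the light chain gene B2m and the transactivator gene Nlrc5. The genes were taken by name, and all 10 were detected. Bone marrow cells of 5 C57BL/6J mice were profiled by droplet 3′ single-cell RNA sequencing (10x Genomics, version 2 chemistry), with every barcode of at least 500 unique molecular identifiers (UMIs, 1 for each captured transcript) counted as a cell. All 5 mice, the day 0 animal included, had received 1000 BCR-ABL1 pre-B acute lymphoblastic leukemia cells by tail vein without irradiation. The day 0 mouse was killed immediately, and 1 mouse each at days 3, 6, 9 and 12. The marrow was collagenase-digested, red cells were lysed, and the cells were frozen before sequencing. There was no uninjected animal and 1 mouse a day, so day, mouse and library cannot be told apart, and no p-value is given. Leukemia cells were not separated from normal B-lineage cells here.

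MHC class I molecules show peptides from inside the cell to CD8 T cells. The proteasome cuts proteins into peptides. In the immunoproteasome, Psmb8 takes the place of the constitutive subunit Psmb5 and Psmb9 that of Psmb6. The Tap1-Tap2 pump carries peptides into the endoplasmic reticulum, where tapasin, the product of Tapbp, helps to load them onto a heavy chain paired with B2m. H2-K1 and H2-D1 encode the classical heavy chains of this strain and H2-T23 the nonclassical Qa-1, a ligand of the CD94/NKG2A receptor of NK cells. Nlrc5 is the class I transactivator, and interferons are known inducers of the whole pathway.

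Of the 10 genes, 8 lie in the major histocompatibility complex on chromosome 17. In GRCm38 (the assembly called mm10) with GENCODE vM21, H2-K1 runs over chr17:33996017-34000347 on the minus strand, H2-D1 over chr17:35262730-35267499 on the plus strand and H2-T23 over chr17:36029773-36032855 on the minus strand. Psmb9 (chr17:34181987-34187764, minus strand), Tap1 (chr17:34187553-34197225), Psmb8 (chr17:34197721-34201454) and Tap2 (chr17:34203527-34216321, all plus strand) form a row in which Psmb9 and Tap1 point away from each other with overlapping starts. Tapbp lies at chr17:33915899-33929292 (plus strand), B2m at chr2:122147686-122153083 (plus strand) and Nlrc5 at chr8:94434356-94527272 (plus strand).

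Promoter windows from 250 bases before to 50 bases after the start were found in RefSeq (GRCm38.p6) for 8 of the 10 genes. Those of the classical heavy chains, the light chain and Tap1 are shown because the values of these genes are set against each other throughout. Capitals mark, on either strand, GGG and CCC with 5 bases of any kind between them (a kappa B-like motif), a repeated GAAA with 2 bases between and the shorter AANTGAAA (both interferon response element-like), TGACG (as in the X2 box of the class I promoter) and ATTGG (as in its Y box). AANTGAAA and the GAAA repeat overlap in B2m. The spaced pair described next was chosen after the windows had been read.
H2-K1, chr17:34000298-34000597, minus strand, the first of its listed starts: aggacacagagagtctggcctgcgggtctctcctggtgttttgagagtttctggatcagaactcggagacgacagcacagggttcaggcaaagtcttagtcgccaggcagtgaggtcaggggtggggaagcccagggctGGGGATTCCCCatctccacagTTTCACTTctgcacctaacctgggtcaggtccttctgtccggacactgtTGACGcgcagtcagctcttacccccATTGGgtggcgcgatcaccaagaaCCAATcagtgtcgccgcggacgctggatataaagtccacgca
H2-D1, chr17:35262844-35263143, plus strand: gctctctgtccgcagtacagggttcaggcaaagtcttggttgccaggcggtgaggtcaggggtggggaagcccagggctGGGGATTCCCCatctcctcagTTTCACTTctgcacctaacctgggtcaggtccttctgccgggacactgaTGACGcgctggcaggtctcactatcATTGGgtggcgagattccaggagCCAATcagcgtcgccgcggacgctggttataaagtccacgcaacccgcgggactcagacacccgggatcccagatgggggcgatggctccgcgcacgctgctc
B2m, chr2:122147437-122147736, plus strand: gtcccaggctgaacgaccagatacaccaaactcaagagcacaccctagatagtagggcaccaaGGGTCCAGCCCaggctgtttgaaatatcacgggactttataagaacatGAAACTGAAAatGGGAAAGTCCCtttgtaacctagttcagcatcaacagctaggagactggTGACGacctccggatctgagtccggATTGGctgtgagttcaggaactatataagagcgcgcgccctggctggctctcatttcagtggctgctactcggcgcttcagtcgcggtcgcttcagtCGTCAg
Tap1, chr17:34187306-34187605, plus strand: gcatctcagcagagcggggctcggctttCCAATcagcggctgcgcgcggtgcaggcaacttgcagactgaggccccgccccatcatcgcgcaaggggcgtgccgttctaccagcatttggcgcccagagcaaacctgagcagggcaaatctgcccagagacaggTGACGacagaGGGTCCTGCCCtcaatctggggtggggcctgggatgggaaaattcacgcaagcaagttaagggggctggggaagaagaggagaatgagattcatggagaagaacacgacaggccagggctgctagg

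Over 227 aligned bases the H2-K1 and H2-D1 windows were 90.7% identical. Each held the kappa B-like motif, AANTGAAA, and TGACG followed on the same strand, after a gap of 15 to 25 bases, by ATTGG. That spaced pair was also in the B2m window and in 74 of 27025 promoter windows of the mouse (0.274%). Singly the motifs were common: the kappa B-like motif stood in 13.8% of windows, AANTGAAA in 6.61%, the GAAA repeat in 3.49%, TGACG in 21.02% and ATTGG in 37.9%. The GAAA repeat was in the windows of B2m and H2-T23. The Tap1 window is shared in most of its length with that of Psmb9. These are matches of letters only.

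The libraries held 6680, 5474, 6506, 7604 and 5871 cells in day order, from day 0 to day 12, from 33425695 to 43554233 UMIs a library, with a median of 2874 to 3786 UMIs a cell. Cells were clustered without 40 class I, loading and proteasome genes, these 10 included, and 9 classes with at least 20 cells in every library were named by marker genes, as "T-like" for example. From 4 of 7 (neutrophil precursor-like) to all listed markers of a class had their highest level in that class. Unnamed clusters of that size were not compared as classes. They were Cd34 progenitors (1317 cells), Ms4a1 Vpreb3 B-lineage cells (1209), a Cd209a cluster (394) and cells with a median mitochondrial share of 59.9% (1569). Rankings of classes below cover the 9 named ones only. Barcodes shared between libraries (44 to 73 for a pair) were about as many as independent draws would give. Barcodes with at most 100 UMIs, taken as free RNA, carried class I transcripts too, and values for them are given below.

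Among the named classes, immunoproteasome transcripts were highest in plasmacytoid dendritic cell-like (pDC-like) cells. The level of Psmb8, in UMIs per 10000 UMIs of the class, was 5.04, 6.07, 5.30, 4.89 and 5.98 in pDC-like cells in day order. No other named class reached that range: monocyte-like cells lay at 3.56 to 4.46, NK-like cells at 3.38 to 4.51 and T-like cells at 3.51 to 4.25. Psmb8 was lowest in neutrophil-like (0.854 to 1.11) and neutrophil precursor-like cells (0.749 to 0.966), whose ranges overlapped. An unnamed cluster led by Cd209a, of 394 cells, had Psmb8 at 5.22 to 6.54, above pDC-like cells of the same library at days 0, 3, 9 and 12. Psmb9 was also highest in pDC-like cells among the named classes, at 2.28 to 2.80, with pro/pre-B-like cells next at 1.75 to 2.26. The Cd209a cluster overlapped with pDC-like cells, at 2.13 to 2.88, and unnamed Cd34 progenitors had 1.84 to 2.15. In contrast to Psmb8, Psmb9 in B-like cells was low, at 0.838 to 1.62.

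The share of Psmb8 in Psmb8 plus Psmb5 UMIs does not depend on how libraries are scaled. It was 72.4 to 81.4% in T-like, 67.5 to 78.0% in pDC-like, 63.3 to 73.7% in B-like and 64.0 to 70.9% in NK-like cells. Monocyte-like cells followed at 59.6 to 66.2%, and the share was lower in pro/pre-B-like (50.5 to 58.2%), neutrophil-like (46.7 to 56.0%) and GMP-like cells (42.1 to 54.9%), which overlapped, and in neutrophil precursor-like cells (37.2 to 45.5%). The ranges of neutrophil-like and neutrophil precursor-like cells did not overlap in the 5 libraries. For Psmb9 against Psmb6 the order was another one. Neutrophil-like cells, at 51.7 to 53.97%, lay within the range of pDC-like cells (45.6 to 60.0%) and above all monocyte-like libraries (36.8 to 44.7%).

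Transport and loading genes had lower UMI levels, in 3′ counts that are not divided by transcript length. Among the named classes Tap1, a chain of the peptide pump, was highest on average in pDC-like cells at 0.423 to 1.27. Its range there overlapped with T-like (0.582 to 0.822), NK-like (0.428 to 0.968) and B-like cells (0.449 to 0.840). The unnamed Cd209a cluster had more Tap1 than pDC-like cells in every library, at 1.204 to 1.495. Tap1 was lowest in neutrophil precursor-like cells at 0.146 to 0.223. Tap2 spanned a narrower range, from 0.216 to 0.300 in neutrophil precursor-like to 0.487 to 0.843 in NK-like cells. Tapbp was at 1.27 to 2.45 in pDC-like and 1.32 to 1.70 in monocyte-like cells. Pro/pre-B-like cells had little of it: Tapbp was 0.498, 0.351, 0.521, 0.432 and 0.228 there in day order, against 1.001 to 1.42 in B-like cells, with no overlap.

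The heavy chain genes did not follow a shared order. H2-K1 was highest in T-like and NK-like cells: it was 16.03, 16.5, 15.2, 13.2 and 15.3 in T-like cells, in day order, and 15.3 to 19.98 in NK-like cells, whose lowest library lay within the T-like range. Below them came pDC-like (9.20 to 12.4), B-like (8.42 to 10.1), monocyte-like (6.02 to 7.22) and pro/pre-B-like cells (5.05 to 6.56). GMP-like cells (granulocyte-monocyte progenitors) had 3.24 to 4.22, neutrophil-like cells 1.87 to 2.41 and neutrophil precursor-like cells 1.29 to 1.75. H2-D1 spread less. NK-like (15.4 to 26.2), monocyte-like (15.4 to 19.5), pDC-like (median 17.5), T-like (12.4 to 19.2) and B-like cells (11.6 to 17.8) overlapped. Neutrophil-like cells, at 9.42 to 12.3, were below each of these classes within every library. H2-T23 stood out in pDC-like cells, at 2.50, 3.01, 2.39, 2.01 and 3.16, above every library of every other named class (the unnamed Cd209a cluster had 1.49 to 2.38), the next being B-like cells at 0.911 to 1.62. B2m was at 37.0 to 56.3 in NK-like, 40.1 to 44.8 in pDC-like, 40.3 to 44.0 in monocyte-like and 33.9 to 42.5 in T-like cells, which overlapped, and at 13.3 to 17.3 in neutrophil-like cells.

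Free RNA held H2-K1 at 5.60 to 8.27 and B2m at 26.9 to 33.1 per 10000 UMIs, above the levels in neutrophil-like cells. How much of the low H2-K1 signal of neutrophil-like cells came from free RNA was not tested. Thinned to 1000 UMIs a cell, 18.8 to 23.5% of neutrophil-like cells had an H2-K1 UMI, against 73.2 to 79.7% of T-like cells. Without thinning, these shares were 43.0 to 51.7% and 94.6 to 97.2%, at median depths of 2756 to 3251 and 1984 to 2906 UMIs a cell. H2-K1, H2-D1 and the other class I heavy chain genes are related in sequence, and reads that fit several genes are not counted. The split between them is therefore uncertain, and how many reads were lost this way was not tested.

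**Figure D1:**
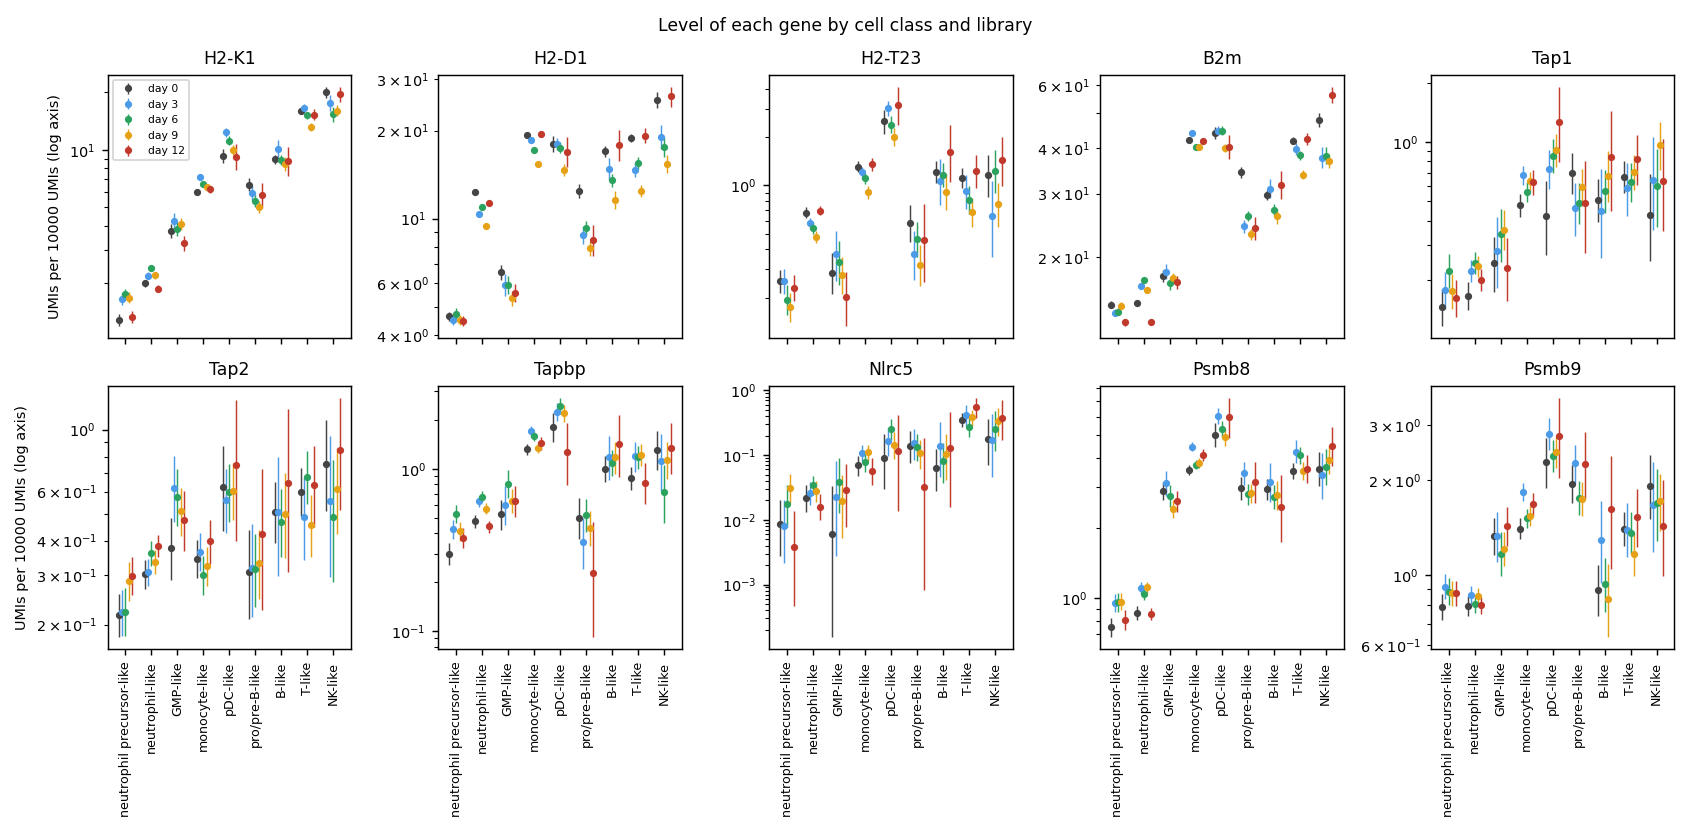
Level of each of the 10 genes (UMIs per 10000 UMIs, log axis) in 9 cell classes; each point is 1 library, coloured by day, with its exact Poisson 95% interval for counting error. H2-K1 climbs from 1.29 to 1.75 in neutrophil precursor-like cells to 15.3 to 19.98 in NK-like cells. H2-D1 spreads less, and in neutrophil-like cells (9.42 to 12.3) it is below T-like, NK-like and B-like cells within every library.

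Set against neutrophil-like cells of the same library, all 10 genes were higher in all 5 libraries in T-like, NK-like and pDC-like cells. In the same comparisons 63.3%, 60.7% and 70.2% of all genes tested were higher in all 5 libraries. Monocyte-like cells had 9 genes higher (75.6% of all genes) and 0 lower (12% of all genes), B-like cells 9 (60.2%) and 0 (11.6%), pro/pre-B-like cells 6 (64.3%) and 1 (15.7%), GMP-like cells 5 (59.6%) and 2 (18.2%), and neutrophil precursor-like cells 0 (46.2%) and 8 (24.3%). Lower in T-like, NK-like and pDC-like cells were 14.7%, 10.5% and 10.6% of all genes. The median of all genes was 1.06 (log2) higher in T-like than in neutrophil-like cells. With the 50 most abundant genes and the mitochondrial genes taken out of the denominator this median was 0.225, and H2-D1, H2-T23, Tap2 and Psmb9 turned lower in T-like cells. Relative to the median of all genes, Nlrc5 (2.90 on the log2 scale), H2-K1 (1.77), Psmb8 (0.87), Tap1 (0.62) and B2m (0.26) were above it in T-like cells, and H2-D1 (-0.51), H2-T23 (-0.40), Psmb9 (-0.33), Tap2 (-0.31) and Tapbp (-0.14) were below it. H2-K1 had a larger ratio than 86.2% of all genes in that comparison.

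Some contrasts left neutrophil-like cells out. GMP-like cells had 8 genes higher and 0 lower than neutrophil precursor-like cells in all 5 libraries, with 53.4% and 12.7% of all genes as background. Pro/pre-B-like cells had 2 higher and 5 lower than B-like cells (32.8% and 19.2% of all genes). NK-like cells had 2 higher and 1 lower than T-like cells (22.2% and 6.92%), and B-like cells had 1 higher and 4 lower than T-like cells (17% and 15.4%). Within T-like cells, those with high Ccl5, a chemokine of effector and memory T cells, had 6 genes higher than the CD8 T-like cells in every library and 0 lower, with 14.9% and 5.74% of all genes as background. Psmb8 was 4.53, 5.11, 4.90, 4.17 and 4.47 in the former, in day order, and 3.12, 3.28, 3.54, 2.94 and 2.97 in the latter, with no overlap.

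Nlrc5 was scarce everywhere, and nearly all of its order rests on few UMIs. It was 0.351, 0.420, 0.274, 0.383 and 0.548 in T-like cells in day order and 0.171 to 0.379 in NK-like cells. In neutrophil-like cells it was 0.0160 to 0.0342, below every library of T-like, NK-like, pDC-like, B-like and monocyte-like cells. An exact sign-flip test over 5 libraries cannot go below a p of 0.0625, so none was run for any of these orders.

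The balance of H2-K1 and H2-D1 differed between the classes. It too is free of the scaling, but not of the loss of reads that fit several genes. H2-K1 made up 45.9, 52.9, 49.4, 51.4 and 44.3% of H2-K1 plus H2-D1 UMIs in T-like cells in day order. In NK-like cells the share was 44.01, 48.1, 46.6, 50.95 and 42.8%. In neutrophil-like cells it was 13.9, 17.5, 18.03, 18.95 and 14.2%. T-like and NK-like cells thus carried about as much H2-K1 as H2-D1, and neutrophil-like cells several times more H2-D1. Monocyte-like cells (23.8 to 29.4%) and neutrophil precursor-like cells (21.7 to 27.2%) lay between them, and GMP-like, pDC-like, B-like and pro/pre-B-like cells shared a range of 32.9 to 43.4%.

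The share also differed between libraries in the same way in most classes. In 8 of 9 classes the lowest shares were those of days 0 and 12 and the highest those of days 3, 6 and 9, with pro/pre-B-like cells, where day 12 had 36 cells, the exception. Over all cells it was 26.98, 30.3, 30.5, 32.2 and 23.3%, and in free RNA 35.7, 35.3, 38.3, 38.96 and 29.5%. The classes of 1 library share a mouse and a preparation and do not replicate each other. The median mitochondrial share of UMIs per cell was also lowest at days 0 and 12, in all 9 classes (in neutrophil-like cells 0.373, 0.604, 0.702, 0.747 and 0.466%, and in pDC-like cells 3.17, 4.87, 4.92, 5.23 and 3.39%). The full order of days was not the same in every class. In pDC-like cells the H2-K1 share was highest at day 3 and the mitochondrial share at day 9. The part of the mitochondrial share in the difference was not tested. Mouse, preparation and sequencing cannot be told apart in this difference.

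**Figure D2:**
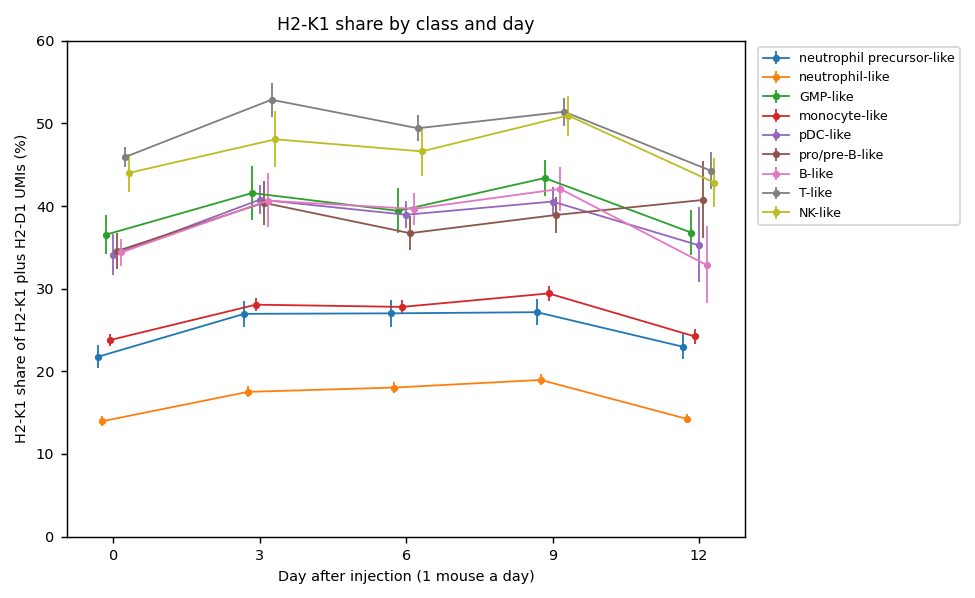
Share of H2-K1 in the sum of H2-K1 and H2-D1 UMIs (%), by day, in 9 cell classes; points are single libraries with exact binomial 95% intervals, joined by class. T-like and NK-like cells lie at 42.8 to 52.9% and neutrophil-like cells at 13.9 to 18.95% on every day, and in 8 classes days 0 and 12 are the lowest.

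Within the neutrophil lineage the heavy chains and the light chain parted. At a finer clustering, chosen after the data had been seen and with interferon-signature cells set aside, all 10 genes were lower in neutrophil precursor-like than in other mature neutrophil-like cells in all 5 libraries. The background was 27.8% of all genes tested lower and 44.6% higher. H2-D1 was far lower in precursors (mean log2 ratio -1.99 ± 0.28, SD, n = 5 libraries) and H2-T23 was lower by as much (-1.94 ± 0.23). H2-K1 differed less (-0.98 ± 0.22), and B2m least of the chains (-0.29 ± 0.16). In mature neutrophil-like cells H2-D1 was 25.2, 16.6, 17.4, 14.7 and 18.2 in day order, around the levels of T-like cells, and the H2-K1 share was down to 11.3 to 16.1%. Without the top genes and mitochondrial genes in the denominator, 8 of the 10 stayed lower in every library. The share of all genes lower with that denominator is not given here, so these 8 are not set against a background.

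A cluster of mature neutrophil-like cells and a cluster of monocyte-like cells were led by interferon-stimulated genes, and both carried more of nearly every class I presentation transcript. The clusters were found with interferon-stimulated genes among the clustering genes but without the 10 genes described here. There were 78, 147, 85, 100 and 109 interferon-signature mature neutrophil-like cells in day order. Against the other mature neutrophil-like cells, 9 of 10 genes were higher in all 5 libraries, where 6.71% of all genes tested were, and 0 were lower (2.45%). The median of the 10 was 0.82 on the log2 scale and that of all genes 0.04.

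Tap1 differed most. It was 0.827, 0.691, 0.772, 1.17 and 0.484 in the interferon-signature cells against 0.212, 0.278, 0.298, 0.291 and 0.279 in the other mature neutrophil-like cells in day order, with no overlap (mean log2 ratio 1.52 ± 0.50, SD, n = 5). Psmb8 followed (1.02 ± 0.27), with Psmb9 (0.88 ± 0.31), H2-T23 (0.86 ± 0.17) and Tapbp (0.78 ± 0.24). Tap2 (0.47 ± 0.32), B2m (0.42 ± 0.12), H2-K1 (0.33 ± 0.22) and H2-D1 (0.28 ± 0.09) differed less. Nlrc5 was higher in 4 of 5 libraries, on few UMIs. The ratio of Tap1 was larger than that of 99.2% of all genes, and that of H2-D1 larger than that of 74.0%. The Psmb8 share in Psmb8 plus Psmb5 was 71.3 to 80.7% in the interferon-signature cells and 53.2 to 63.6% in the others.

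Interferon-signature monocyte-like cells were few, 18, 17, 31, 24 and 13 in day order, and the last library fell under the minimum of 15 cells for finer states. In the other 4 libraries, 9 of 10 genes were higher than in classical monocyte-like cells, with 11.6% of all genes as background, and 0 were lower (10% of all genes). Tap1 was 2.36, 2.30, 1.67 and 2.03 against 0.534, 0.711, 0.583 and 0.614 at days 0, 3, 6 and 9 (mean log2 ratio 1.79 ± 0.27, SD, n = 4). Psmb9 (1.26 ± 0.33), H2-T23 (1.11 ± 0.20) and Psmb8 (0.75 ± 0.18) again stood above B2m (0.40 ± 0.06) and H2-D1 (0.35 ± 0.02). H2-K1 was higher in 3 of 4 libraries (0.17 ± 0.19). An Mmp8-expressing neutrophil-like cluster with the same signature had 6 of 9 tested genes higher than Ltf-high neutrophil-like cells in all 5 libraries, against 11.3% of all genes, and 0 lower (4.98%). Its Tap1 ratio was 0.65 ± 0.41.

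**Figure D3:**
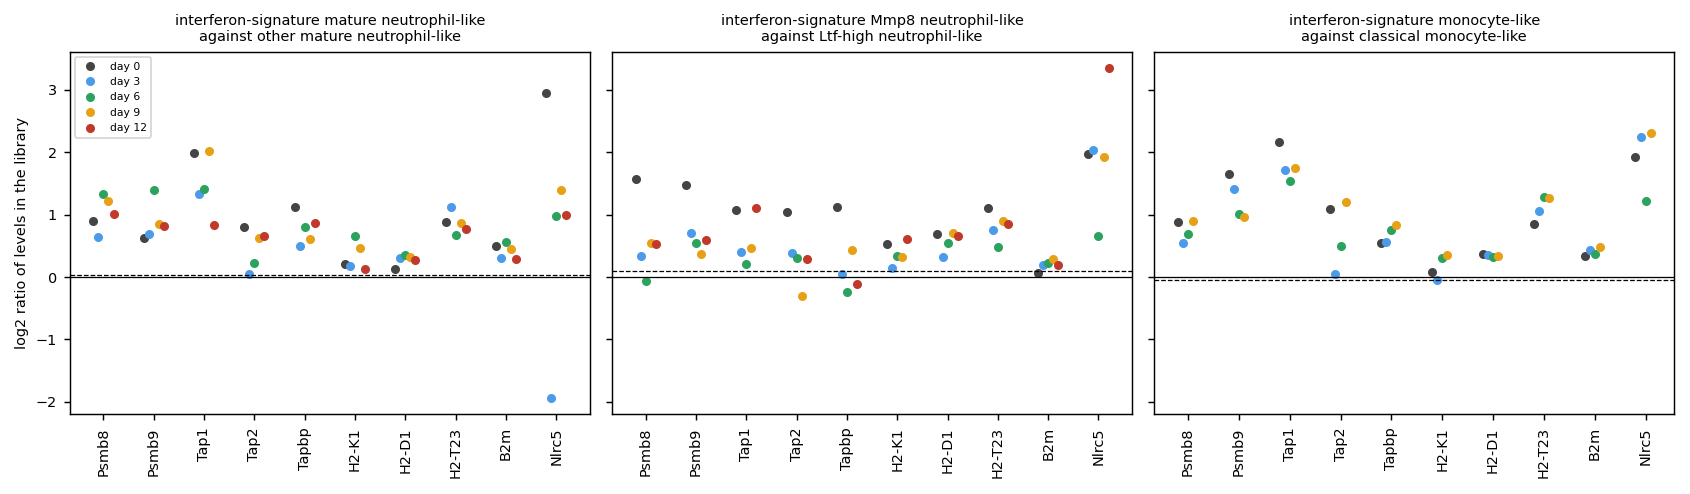
Log2 ratio of levels of the 10 genes in interferon-signature cells over their counterparts within each library, for mature neutrophil-like cells (left), Mmp8-expressing against Ltf-high neutrophil-like cells (middle) and monocyte-like cells (right); points are libraries, the dashed line is the median of all genes tested. Tap1 averages 1.52 in mature neutrophil-like and 1.79 in monocyte-like cells, and H2-D1 0.28 and 0.35; the scattered Nlrc5 points rest on few UMIs.

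Nonclassical monocyte-like cells split the pathway, in the 4 libraries with enough of them. H2-K1 was 8.33, 10.99, 13.7 and 11.4 at days 0, 3, 6 and 9, against 6.06, 6.73, 6.19 and 6.26 in classical monocyte-like cells (mean log2 ratio 0.80 ± 0.29, SD, n = 4). H2-D1 (0.45 ± 0.19) and B2m (0.27 ± 0.23) were higher in all 4 libraries as well. Psmb8 (-0.81 ± 0.40), Psmb9 (-0.67 ± 0.49), H2-T23 (-0.52 ± 0.11) and Tapbp (-0.40 ± 0.18) were lower in all 4. The background was 14.1% of all genes higher and 23.6% lower. Without the top genes and mitochondrial genes in the denominator, 2 of these 4 stayed lower in all libraries, with no share of all genes given for that denominator.

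Cycling monocyte-like cells had less of the chains than classical monocyte-like cells. H2-K1 was 3.94, 4.92, 4.20, 4.08 and 4.45 in day order, against 6.06, 6.73, 6.19, 6.26 and 6.31 (mean log2 ratio -0.55 ± 0.07, SD, n = 5). H2-D1 (-0.56 ± 0.06), B2m (-0.58 ± 0.05), H2-T23 (-0.90 ± 0.15) and Tapbp (-0.28 ± 0.15) were lower in all 5 libraries too. Psmb9 (0.39 ± 0.15) was higher in all 5, so 5 genes were lower and 1 higher, with 19.9% and 23.5% of all genes as background.

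Along the B lineage, the chains were lowest in the dividing stage, and Psmb9 was not. H2-K1 was 8.61, 8.65, 7.56, 6.91 and 8.10 in pro-B-like cells (Dntt, Vpreb1) in day order. In large, cycling pre-B-like cells (Top2a, Mki67) it was 5.04, 5.22, 4.71, 4.27 and 4.62, lower in every library (mean log2 ratio -0.74 ± 0.05, SD, n = 5). In small pre-B-like cells (Rag1) it was 10.8, 11.1, 10.3, 10.6 and 8.34, and mature B-like cells had 8.52 to 10.2.

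B2m, H2-D1, H2-T23, Tap2 and Tapbp were also lower in large pre-B-like cells than in both neighbours in every library. H2-D1, for example, was 8.37, 7.91, 8.05, 6.57 and 7.37 there, against 22.4, 15.96, 16.4, 14.8 and 22.2 in small pre-B-like cells. Psmb9 was higher in large than in small pre-B-like cells: it was 2.18, 2.29, 1.88, 1.73 and 2.26 in large and 0.871, 0.758, 1.11, 1.13 and 0.782 in small pre-B-like cells, with no overlap (mean log2 ratio 1.10 ± 0.41). Against pro-B-like cells (1.37 to 2.22) Psmb9 was higher in 4 of 5 libraries, by less than the spread between libraries (0.18 ± 0.23). Of the 10 genes, 7 were lower and 0 higher in large pre-B-like than in pro-B-like cells in all 5 libraries, with 19.8% and 13.9% of all genes as background. Against small pre-B-like cells 6 were lower and 2 higher, with 29.5% and 20.3%. Thinned to 1000 UMIs, 3 (H2-K1, H2-D1 and B2m) were lower in every library in each comparison and 0 higher. Psmb9 was then higher than in small pre-B-like cells in 4 of 5 libraries (1.31 ± 1.26). Large pre-B-like cells were 17 at day 12 and 55 to 128 on the other days.

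**Figure D4:**
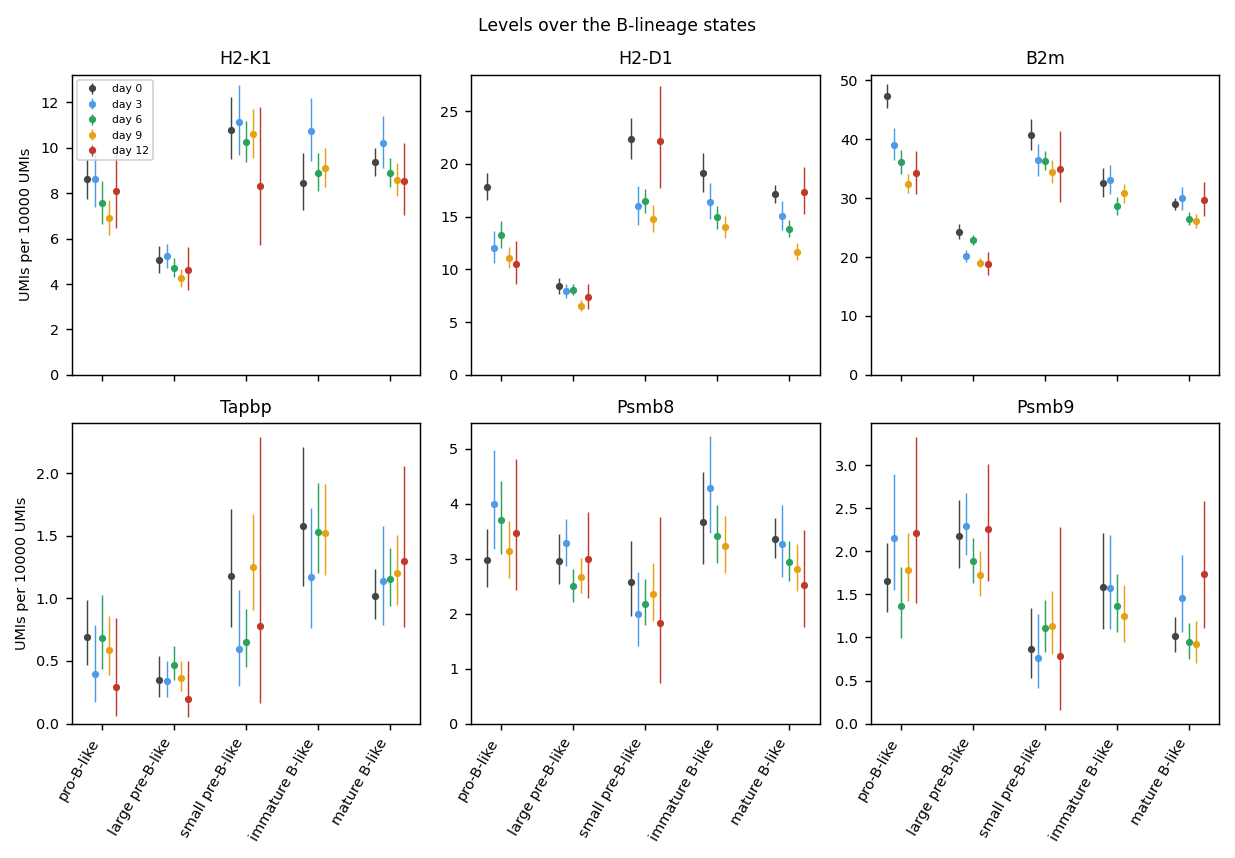
Levels (UMIs per 10000 UMIs) of 6 genes over 5 B-lineage states; points are libraries with exact Poisson 95% intervals. H2-K1, H2-D1, B2m and Tapbp dip in large pre-B-like cells, where Psmb9 (1.73 to 2.29) lies above all small pre-B-like libraries (0.758 to 1.13).

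A cluster of 133 cells with pro/pre-B markers came only from the day 3 library, with a median of 19670 UMIs a cell. At the finer clustering these cells were joined by 91 day 3 cells and 36 cells of other days that had been neutrophil-like, so the 133 were used. The cluster was compared with the 106 other pro/pre-B-like cells of that library (median 4915 UMIs), without replication. The part of the unequal depth in the values was not tested. H2-K1 was 3.78 against 5.97 (log2 ratio -0.66, 95% interval -0.81 to -0.51) and H2-T23 was 0.124 against 0.373 (-1.59, -2.33 to -0.86). These 2 of the 10 genes were more than 1.5-fold lower and 0 more than 1.5-fold higher, where 18.6% and 12.6% of all genes were. H2-D1 (5.88 against 8.82) and B2m (17.9 against 24.4) were lower by less. Psmb8, at 3.42 against 3.44, differed by a log2 ratio of -0.01 (-0.19 to 0.18). Set against the 69 large pre-B-like cells of day 3, H2-T23 alone was past 1.5-fold (-1.57, -2.35 to -0.76), with 17.8% of all genes lower and 14.5% higher by that much.

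Against the day 0 mouse, most levels within a class differed by less than 1.5-fold. At days 3, 6, 9 and 12, 3, 6, 3 and 3 gene and class pairs were higher by 1.5-fold and 3, 1, 6 and 1 were lower, of 81, 82, 84 and 79 with at least 50 counts. Of all gene and class pairs, 8.52%, 10.7%, 11.6% and 6.46% were higher and 6.13%, 5.25%, 6.85% and 6.3% lower by this fold on these days, so the counts of the 10 genes were near or below the background. With the cluster found only at day 3 counted as pro/pre-B-like, 7 pairs rather than 3 were lower at day 3. Transport and loading genes made up 2, 5, 2 and 1 of the higher pairs at days 3, 6, 9 and 12, and heavy chains all 6 lower pairs of day 9. With counts this near the background, no direction of a gene group is read from them.

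Tap1 in pDC-like cells was the pair most often past the fold. Its level was 0.423, 0.732, 0.852, 0.911 and 1.27 in day order. The log2 ratios to day 0 were 0.77 (95% interval 0.10 to 1.53), 0.99 (0.35 to 1.73) and 1.08 (0.45 to 1.82) at days 3, 6 and 9, with 6.67%, 7.56% and 8.46% of all genes higher by 1.5-fold, and day 12 had too few counts. All rest on the 23 Tap1 UMIs of the day 0 library. In neutrophil precursor-like cells Tapbp was 0.299, 0.423, 0.529, 0.413 and 0.374, a log2 ratio of 0.82 (0.54 to 1.11) at day 6, when 24.7% of all genes were higher by 1.5-fold in that class.

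H2-D1 and H2-T23 were lower at day 9 than at day 0 in all 9 classes. Of 1829 genes with enough counts in every class, 7% were, and 6.45% were higher in all 9. H2-D1 was 18.9, 14.7, 15.5, 12.4 and 19.2 in T-like cells, and 25.4, 18.99, 17.6, 15.4 and 26.2 in NK-like cells in day order. In pro/pre-B-like cells it was 12.4, 8.82, 9.28, 7.92 and 8.43. The log2 ratios of day 9 to day 0 were -0.60 (95% interval -0.69 to -0.52), -0.72 (-0.86 to -0.59) and -0.65 (-0.77 to -0.53) in these classes, where 7.31%, 13.5% and 10.4% of all genes were lower by 1.5-fold. Day 9 held the lowest H2-D1 level of the 5 libraries in 8 of 9 classes and the lowest H2-T23 level in 7. Only 0.523% of 3248 genes were lowest at day 9 in at least 7 classes, a limit set after these values had been seen. In the day 12 mouse H2-D1 in T-like, NK-like, B-like and monocyte-like cells was near the level of the day 0 mouse. It was lower than at day 0 in 5 of 9 classes and higher in 4. The lower ones included pro/pre-B-like (8.43 against 12.4) and GMP-like cells (5.56 against 6.54). The median mitochondrial share was highest at day 9 in 8 of 9 classes and lowest at days 0 and 12 in all 9 (in monocyte-like cells 1.87, 2.39, 2.53, 2.65 and 2.11%), and its part in the H2-D1 and H2-T23 values was not tested.

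H2-K1 shared this in some classes only. It was lower at day 9 than at day 0 in 4 of 9 classes and higher in 5. The 4 were T-like (13.2 at day 9 against 16.03), pro/pre-B-like (5.05 against 6.56), NK-like and B-like cells. Day 9 held its lowest level in 3 classes. The median log2 ratio of H2-K1 to day 0 over the classes was 0.09 at day 9. That of H2-D1 was -0.39, that of H2-T23 -0.52 and that of Tap1 0.42. B2m was lower at day 9 than at day 0 in 8 of 9 classes and higher in 1, with a median log2 ratio of -0.14. Its lowest level was at day 9 in 6 classes. In T-like cells, for example, B2m was 42.05 at day 0 and 33.9 at day 9. Free RNA also had its lowest H2-D1 level at day 9, 11.3 per 10000 UMIs against 13.2 to 14.3 on the other days. The make-up of the classes differed between the days: Cxcl2-high mature neutrophil-like cells were 555 at day 0 and 160 at day 9, Retnlg-high ones 126 and 584, and CD8 T-like cells 480 and 188. Within the named states of the finer clustering, H2-D1 was lower at day 9 in 24 of 25 states with enough counts and H2-T23 in 21 of 22. Of all gene and state pairs 44.3% were lower. That is a share of pairs, and the share of genes lower in as many states is not given here. The states of a day come from 1 mouse and do not replicate each other. H2-D1 was lower in Cxcl2-high (28.5 at day 0 and 17.9 at day 9), Retnlg-high (18.9 and 12.8) and CD8 T-like cells (17.4 and 10.6), and also in pro-B-like (17.8 and 11.1 at days 0 and 9), large pre-B-like (8.37 and 6.57) and small pre-B-like cells (22.4 and 14.8).

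**Figure D5:**
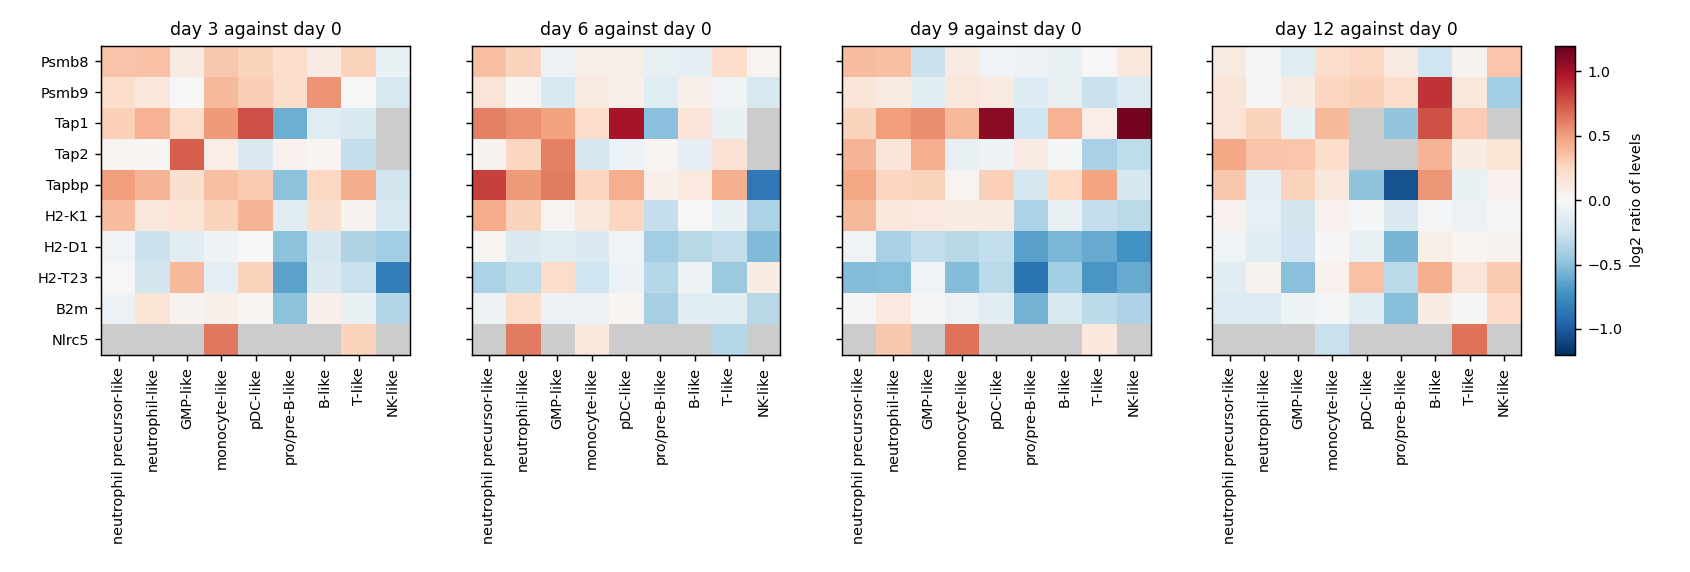
Log2 ratio of the level at days 3, 6, 9 and 12 to that at day 0 for 10 genes (rows) in 9 classes (columns); red is higher, blue lower, grey under 50 counts in both libraries together. The H2-D1 and H2-T23 rows are blue in all classes at day 9, and the Tap1 ratio is 0.77, 0.99 and 1.08 in pDC-like cells at days 3, 6 and 9.

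Other genes around the pathway gave a mixed picture over the days. Of 24 interferon-stimulated genes, 34 of 83 gene and class pairs were higher by 1.5-fold than at day 0 and 5 lower at day 3. At day 6 these were 20 and 6 of 86, at day 9 25 and 0 of 93, and at day 12 11 and 2 of 77. Over all gene and class pairs, as above, 6.46 to 11.6% were higher and 5.25 to 6.85% lower on these days. Ifit3, an antiviral effector, was past the fold at all 4 later days in monocyte-like cells, at 0.0595 on day 0 and 0.230, 0.0944, 0.121 and 0.150 after. Ifi27l2a did so in pro/pre-B-like cells, with 1.79 on day 0 and 2.74 to 3.68 after. Among the 7 other proteasome genes, led in level by the activator subunits Psme1 and Psme2, 1 to 3 of 60 to 62 pairs were higher on a day and 1 to 2 lower, below the share over all pairs. Among 8 other loading and trimming genes, led by the chaperone Calr, 2, 1, 1 and 1 pairs were higher at days 3, 6, 9 and 12 and 0, 4, 7 and 5 lower, of 47 to 53. Socs1, an inhibitor of cytokine signalling, was lower by 1.5-fold at all 4 later days in neutrophil precursor-like cells, at 0.0997 on day 0 and 0.0265 to 0.0649 after. Of the interferon genes, Ifng was at 0.299 to 1.26 in NK-like and 0.121 to 0.232 in T-like cells, and both classes had it lower by 1.5-fold than at day 0 at days 3, 6 and 9. Among 15 regulators and receptor chains, 17 of 88, 12 of 97, 19 of 102 and 2 of 80 pairs were higher at days 3, 6, 9 and 12, and 2, 2, 3 and 3 were lower. Of 14 other heavy chain genes, 3, 5, 6 and 0 pairs were higher and 7, 6, 6 and 6 lower, of 44 to 52.

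Over the 45 class and library points, the genes most like the mean of the 10 were H2-T22 (Pearson r = 0.94), Sepw1 (0.93), Tmem173 (0.93), Nfkb1 (0.93) and Mbnl1 (0.92), of 4534 genes considered. The points share classes and libraries, so the values describe a likeness and carry no p-value. H2-T22, a further nonclassical heavy chain gene, was at 1.05 to 1.18 in pDC-like and 0.754 to 1.14 in T-like cells and at 0.163 to 0.191 in neutrophil-like cells. H2-Q7, the most abundant of the other heavy chain genes, was at 4.75 to 7.04 in NK-like and 4.30 to 5.81 in T-like cells, and at 0.0649 to 0.175 in neutrophil-like cells. Within the 10, H2-K1 and B2m were most like each other (r = 0.90), and Psmb9 was the gene least like 5 of the others.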

How the data were processed

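Per the study's methods and the labels, the authors aligned reads to mm10 with Cell Ranger and deposited unfiltered UMI counts per gene and barcode for 5 libraries, 1 mouse each. Cell Ranger does not count reads that fit several genes. From these counts, barcodes with at least 500 UMIs were kept, with no mitochondrial limit and no doublet removal (both tried as alternatives). Cells of all libraries were clustered with scanpy 1.11.5 and leidenalg 0.10.2 (30 components, 20 neighbours, resolution 1.0, and 2.0 for finer states) on 915 variable genes. Classes were named from marker lists. Counts were summed per class and library and given per 10000 UMIs with exact Poisson 95% intervals, and shares with exact binomial ones, which cover counting error only. Log2 ratios used an added count of 0.5. A gene was considered with at least 50 counts in the samples compared. The genes named are the 10 members, the 5 most like them, and the list genes past 1.5-fold at all later days, beside the most abundant list genes. The counting code was tested on simulated data. The members, lists and finer states were chosen with earlier results of these data known. Promoters came from RefSeq tables, positions from GENCODE vM21.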

Additional observations from a re-analysis of the deposited data

Results flagged for a closer look

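In 3 genes the direction of the difference from day 0 was opposite in a pair of cell classes at all 4 later days. These differences between classes were not tested, since every later day is 1 mouse and all ratios share the day 0 library. The mean log2 ratio of H2-K1 was 0.31 in neutrophil precursor-like and -0.24 in pro/pre-B-like cells. For Tap1 it was 0.43 in neutrophil-like and -0.45 in pro/pre-B-like cells. For Psmb9 it was 0.22 in monocyte-like and -0.23 in NK-like cells, the latter on 34 to 92 UMIs a library. All genes moved too: their median log2 ratio to day 0 over the 4 days was 0.0845 to 0.30 in neutrophil precursor-like, 0.0268 to 0.21 in neutrophil-like, 0.0462 to 0.0842 in monocyte-like, -0.0839 to -0.0188 in pro/pre-B-like and -0.0605 to 0.00978 in NK-like cells.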

How the results depend on the processing

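No paired analysis was possible because each day is 1 sample, so the days have no replicates to pair. Contrasts between classes were made within each library. Of 530 recomputed counts of genes or pairs, 465 stayed within 1.5 times the reported count and 65 did not. Shares of all genes under the changed settings are not given beside these counts. Of 1123 recomputed single ratios, 186 moved by more than their spread or interval, and 30 with 1 direction in all libraries or past 1.5-fold changed sign. The cause was not tested except where the setting itself removes cells, counts or genes. The counts of pairs against day 0 were small and moved easily. With a mitochondrial limit of 3 MAD, 0 were lower at day 12. Without the top 5% of doublet scores, 3 were lower and 6 higher at day 12 and 5 higher at day 9. As a mean over cells, 5, 5 and 5 were higher at days 3, 9 and 12, and 3, 10 and 4 lower at days 6, 9 and 12. With a fold of 2, 0 were higher at days 3, 6 and 12 and 0 lower at days 3, 6 and 9. With a minimum of 20 counts, 5 were higher at days 3 and 9 and 2 lower at day 6. Thinned to 1000 UMIs, 1 was lower at day 3, and with the day 3 cluster counted in the pro/pre-B-like class 7 were. Between classes, leaving the 50 top genes and mitochondrial genes out of the denominator changed most. Against neutrophil-like cells, 1 was then higher and 6 lower in GMP-like, 2 lower in monocyte-like, 2 lower in pDC-like, 4 lower in pro/pre-B-like, 4 higher and 2 lower in B-like, 5 higher and 2 lower in T-like and 5 higher in NK-like cells. In GMP-like against neutrophil precursor-like cells 2 were higher and 4 lower, 1 was higher in pro/pre-B-like than in B-like and 1 in NK-like than in T-like cells, and 2 were lower in nonclassical monocyte-like cells. Thinning left 5 lower in neutrophil precursor-like, 2 higher in GMP-like against neutrophil-like and 5 against precursor-like cells, 1 higher in pro/pre-B-like than in B-like cells, 4 higher and 0 lower in NK-like than in T-like cells, 3 higher in Mmp8 interferon-signature cells, 2 lower in nonclassical monocyte-like cells, and in large pre-B-like cells 3 lower than in pro-B-like and 3 lower and 0 higher than in small pre-B-like cells. As a mean over cells, 3 were higher in GMP-like and 0 lower in pro/pre-B-like than in neutrophil-like cells, 1 higher in pro/pre-B-like than in B-like, 0 higher in B-like than in T-like, and in large pre-B-like cells 4 lower than in pro-B-like and 1 higher than in small pre-B-like cells. In neutrophil precursor-like cells 1 was higher with a minimum of 1000 UMIs, without doublets, or leaving out day 0 (leave-one-out range 0 to 1). In pro/pre-B-like cells 3 (mitochondrial limit), 2 (no doublets) and 0 (resolution 2.0) were lower than in neutrophil-like cells, and 1 to 3 leaving out a library. Without doublets 1 was higher in pro/pre-B-like than in B-like and 0 lower in NK-like than in T-like cells, and at resolution 2.0 these were 1 in the former and 0 higher in B-like than in T-like cells. Leaving out a library, 0 to 1 were higher in large pre-B-like than in pro-B-like cells.

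Signs changed for these mean log2 ratios. With the reduced denominator, GMP-like against neutrophil-like cells gave H2-K1 -0.10, Tap1 -0.49, Tap2 -0.35 and Psmb9 -0.29, and against precursor-like cells H2-D1 -0.44, B2m -0.49, Tap1 -0.0768, Tapbp -0.13 and Psmb9 -0.22. Against neutrophil-like cells it gave H2-D1 -0.28, H2-T23 -0.023 and Psmb9 -0.058 in monocyte-like, H2-D1 -0.37 and Tap2 -0.11 in pDC-like, B2m -0.34 in pro/pre-B-like, H2-D1 -0.40 and Tap2 -0.19 in B-like, H2-D1 -0.28, H2-T23 -0.17, Tap2 -0.084 and Psmb9 -0.11 in T-like, and H2-D1 -0.0564, H2-T23 -0.18 and Tap2 -0.0071 in NK-like cells. Psmb8 in pro/pre-B-like against B-like cells was -0.13 there, -0.0769 as a mean over cells and -0.10 at resolution 2.0. Thinned, Tap1 in GMP-like against neutrophil-like cells was -0.43, and Nlrc5 against day 0 was -0.35 in neutrophil-like cells at day 6 and -0.0335 in T-like cells at day 12.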
